A study of Mus musculus with 10 samples.

Results

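The Fc gamma receptors are the surface proteins through which myeloid cells bind the constant end of immunoglobulin G. Their 6 mouse genes Fcgr1, Fcgr2b, Fcgr3, Fcgr4, Fcer1g and Fcgrt were taken by symbol from a table of 55385 mouse genes, of which 11274 had a mean level high enough to be tested, all 6 among them. The libraries came from Tomato+ neutrophils isolated from squamous cell carcinoma (SCC) grafts growing on CatchupIVM-red mice, a reporter strain in which expression from the Ly6g locus marks neutrophils with the red protein Tomato. The grafts were parental Sox2low control cells or Sox2Hi SCC cells, and the mice were left naïve or were given anti-PDL1/CD40 agonist once tumours were established. The library descriptions carry C57 in every group and mark the control grafts as GFP. There were 3 control naive and 2 control treated libraries, and likewise 3 naive and 2 treated ones from Sox2Hi grafts, all from hosts with the same reporter. The labels do not say that the libraries of a group came from separate mice, so the p-values below measure the spread between these libraries, part of which may be technical. They give no age, dose or time.

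Fc gamma receptors come in activating and inhibitory forms. The activating receptors Fcgr1 (high affinity), Fcgr3 and Fcgr4 (lower affinity) bind IgG with their own alpha chain but reach the membrane and signal through the common gamma chain encoded by Fcer1g, whose ITAM is phosphorylated by Src family kinases and then recruits the kinase Syk. Fcgr2b is the inhibitory receptor: its ITIM recruits the phosphatase SHIP-1 (Inpp5d) and damps the activating signal, so the balance of both kinds sets how strongly a neutrophil answers an immune complex. Fcgrt encodes FcRn, the neonatal receptor, which pairs with beta-2 microglobulin (B2m) and returns internalised IgG to the cell surface. The treatment itself consisted of antibodies, which carry the Fc end that these receptors bind. Binding was not measured here.

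Libraries held between 13815734 and 22986193 counts in mouse genes. Levels are depth-normalised counts (CPM) scaled with TMM factors from the tested genes, called here expressed-gene scaling. An alternative with TMM factors from 29648 genes, low ones included, is called all-gene scaling. Its fit also estimated the spread and adjusted p-values over those 29648 genes. Calls that it moved may therefore come from the factors or from the larger gene set, and which of these was not tested. Changes are edgeR quasi-likelihood log2 fold changes with their standard errors, called when the p-value adjusted by Benjamini-Hochberg over all tested genes was under 0.05. Against expressed-gene scaling, all-gene scaling moved the median tested gene by 0.55 (treated against naive, control graft), -0.27 (treated against naive, Sox2Hi graft), 0.37 (Sox2Hi against control, naive), -0.45 (Sox2Hi against control, treated) and -0.82 (graft by treatment interaction) on the log2 scale, and its values are given beside those of the 6 members wherever it moved a call. All 18 neutrophil markers were tested, and none was at 0. S100a8 averaged 1676 CPM in control naive and 8878 CPM in control treated libraries, while Ly6g itself was low, with means of 2.47 and 14.6 CPM in naive and treated control grafts and 2.4 and 8.06 CPM in Sox2Hi ones. The counts expected from background, estimated from 1435 genes silent in neutrophils, made up between 1.57% and 8.29% of a library and were lowest in the control treated pair.

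The genes for Fcgr2b, Fcgr4, Fcgr3 and Fcer1g lie in 1 region of mouse chromosome 1 (GRCm38), Fcgr2b at chr1:170958617-170976547, Fcgr4 at chr1:171018920-171029761, Fcgr3 at chr1:171051174-171064935 and Fcer1g at chr1:171229572-171234365. Fcgr1 lies at chr3:96282909-96293969 and Fcgrt at chr7:45092990-45103851. Only Fcgr4 is on the plus strand. The extracellular parts of Fcgr2b and Fcgr3 are close copies of each other, which matters for the counts. Of the 31-base stretches in Fcgr3 transcripts, 13.4% also occur in another gene, every one of them in Fcgr2b, and these are 4.15% of the stretches of Fcgr2b. The longest coding stretch common to both is 129 bases, shown because a read inside it names neither gene.
Fcgr2b and Fcgr3, shared coding stretch: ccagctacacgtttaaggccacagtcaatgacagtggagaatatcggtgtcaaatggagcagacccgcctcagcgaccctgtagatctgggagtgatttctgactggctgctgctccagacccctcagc
Fcgr1 and Fcer1g shared no such stretch with any other gene, and the shares for Fcgr4 (1.31%) and Fcgrt (1.6%) were small. Counts of Fcgr2b and Fcgr3 are therefore estimates that depend on how reads from the common part were split. An antisense gene overlaps Fcgr2b and another overlaps Fcgrt in the annotation, and without strand information their reads cannot be told apart.

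The promoters of Fcgr1 and Fcgr4 are shown because they carry the letters of elements known from interferon and myeloid gene control. Their direction under treatment does not set them apart, since each of the 6 members had the same direction in both grafts. The sequences are RefSeq's (GRCm38.p6), 5′ to 3′ on the gene's strand and ending before the first exon, with matches in capitals.
Fcgr1 promoter: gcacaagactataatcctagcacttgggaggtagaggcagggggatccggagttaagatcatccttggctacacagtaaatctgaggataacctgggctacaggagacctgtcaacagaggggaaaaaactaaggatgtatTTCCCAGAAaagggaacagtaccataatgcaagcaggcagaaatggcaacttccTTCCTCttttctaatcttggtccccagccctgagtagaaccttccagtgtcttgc
Fcgr4 promoter: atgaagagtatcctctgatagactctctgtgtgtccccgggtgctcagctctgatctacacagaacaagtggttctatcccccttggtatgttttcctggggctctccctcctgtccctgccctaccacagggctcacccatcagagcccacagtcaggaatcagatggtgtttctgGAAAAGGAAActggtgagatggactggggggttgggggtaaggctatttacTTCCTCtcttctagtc
The Fcgr1 stretch is chr3:96293970-96294219 on the minus strand. Its capitals mark TTCCCAGAA, a match to the GAS letters TTCNNNGAA, an element known from interferon gamma responses, at -109 to -101 from the transcription start. They also mark TTCCTC, the reverse complement of the PU box letters GAGGAA that the myeloid factor PU.1 recognises, at -55 to -50. The Fcgr4 stretch is chr1:171018676-171018919 on the plus strand. Its capitals mark GAAAAGGAAA, a match to the ISRE letters, GAAA repeated after a gap of any 2 bases, the element bound by interferon-activated complexes, at -73 to -64, and a PU box at -22 to -17. Both strands were searched over the 250 bases before the start. GAS letters occur in 7.04% of 32536 such windows, ISRE letters in 2.98% and the PU box in 23.4%, so the matches are descriptions of the sequence and not evidence of binding. Fcgr3 had a PU box at -6 to -1. The windows of Fcgr2b, Fcer1g and Fcgrt held none of these letters, and those of Fcgr2b and Fcgr3 overlap exons and are not printed.

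The common gamma chain gene was the most abundant of the 6. Over all 10 libraries and per kilobase of exon, Fcer1g averaged 2378 CPM per kb, Fcgr3 845, Fcgr4 207, Fcgr2b 41.3, Fcgr1 8.02 and Fcgrt 7.94. On the length of the longest coding transcript in place of all exons, Fcgr2b was at 67.6 and still under Fcgr4, whereas Fcgrt (9.43) passed Fcgr1 (8.02). On the shortest coding transcript Fcgr2b (221) passed Fcgr4 (207) too. The order of Fcgr4 and Fcgr2b and that of Fcgr1 and Fcgrt therefore depend on the length used. Fcgr3 was the main receptor: it made up between 73.4% and 82.7% of the summed level per kb of the 4 IgG-binding Fcgr genes in every library. Fcgr4 followed with 11.1% to 22.9%, Fcgr2b with 2.42% to 5.72% and Fcgr1 with 0.593% to 0.952%. Fcgr1 and Fcgrt rested on few counts, between 193 and 608 for Fcgr1 and between 130 and 456 for Fcgrt per library. Background expected from silent genes was between 1.18% and 8.27% of the Fcgr1 counts and between 2.5% and 7% of those of Fcgrt, and at most 1.72% for the other members.

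**Figure D1:**
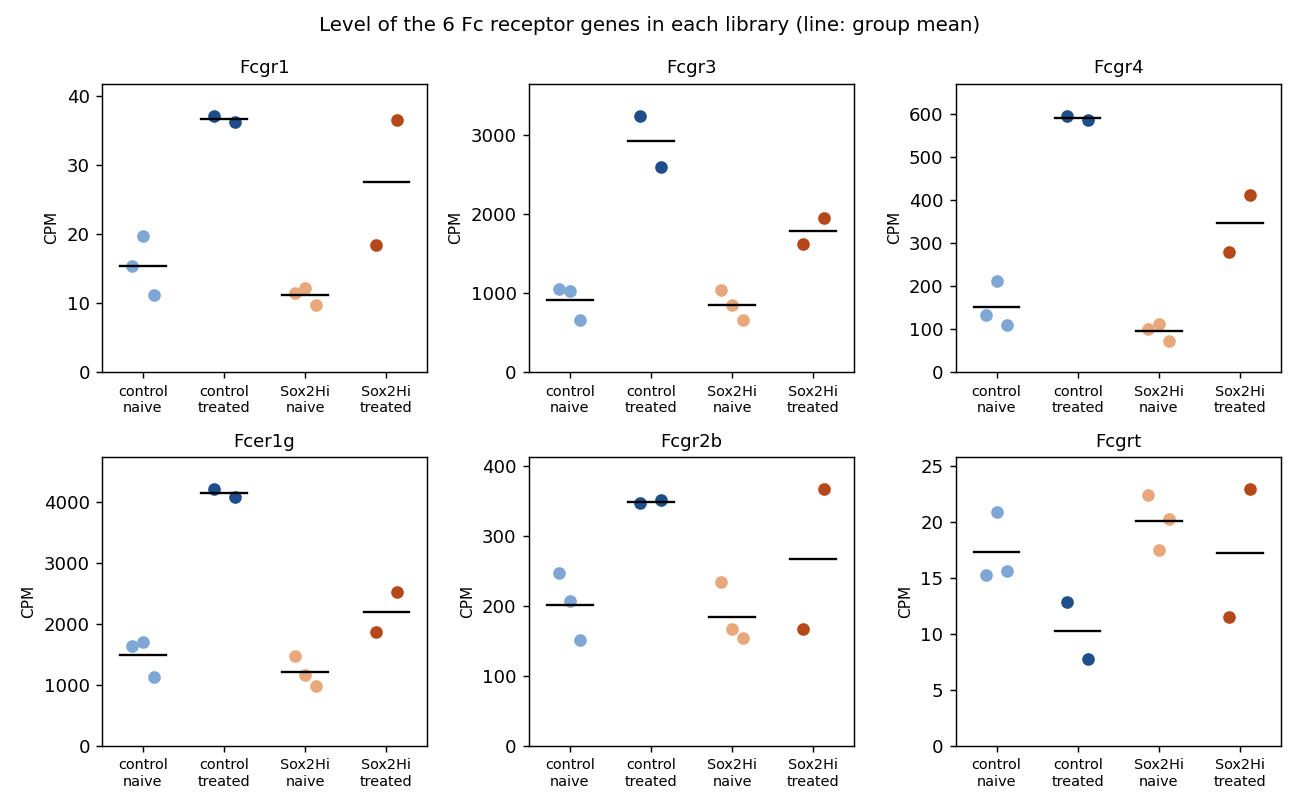
Level of each Fc receptor gene in each library, in CPM under expressed-gene scaling, by group. Points are libraries and lines are group means. The 5 panels other than Fcgrt have both control treated libraries above all control naive ones, while Sox2Hi treated replicate 2 lies above replicate 1 in all 6 panels.

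In control grafts, treatment went with higher transcript levels of all 3 activating receptors, of their gamma chain and, less firmly, of the inhibitory receptor. Of the 6 genes 5 rose, at 57.3% of all tested genes called in either direction and 24.1% called higher, a share that reached 54.7% among the 1520 genes averaging 100 CPM or more. The same 5 genes had groups that did not overlap, as did 29.6% of tested genes in that direction. The median log2 fold change was 1.36 over the 6 genes, -0.18 over all tested genes and 0.54 over those of at least 100 CPM. In bulk RNA, more transcript per cell and more cells carrying it cannot be told apart.

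Fcgr4, an activating receptor that binds IgG2 subclasses, had the largest fold change of the 6. Its level was 133, 210.4 and 109.7 CPM in control naive libraries and 595 and 584 CPM in control treated ones. Both treated libraries were far above every naive one, and they were nearly equal. The rise was 1.97 ± 0.28 (log2, SE; adjusted p = 4e-04), or 3.91-fold, and it ranked 246 of 11274 genes from the highest. Fcgr3, the most abundant receptor here, had 1054, 1020.3 and 659.7 CPM in naive and 3239 and 2592 CPM in treated libraries. The groups were far apart, although the treated libraries also differed from each other. Its rise was 1.68 ± 0.25 (adjusted p = 0.00048), or 3.2-fold. Fcgr1, the high-affinity receptor for monomeric IgG, was low throughout, with 15.3, 19.7 and 11.1 CPM in naive and 37.1 and 36.2 CPM in treated libraries. The treated pair again agreed closely and lay above all naive libraries. Fcgr1 rose by 1.26 ± 0.28 (adjusted p = 0.0036), or 2.39-fold.

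The gamma chain Fcer1g moved with the receptors that need it. It had 1643, 1701 and 1134 CPM in control naive and 4209.8 and 4078 CPM in control treated libraries, again without overlap. The rise was 1.47 ± 0.24 (adjusted p = 7e-04), or 2.78-fold. Fcgr2b, the inhibitory receptor, had 248, 207 and 151 CPM in naive and 347 and 352 CPM in treated libraries. These groups did not overlap either, but the step was smaller: 0.79 ± 0.31 (adjusted p = 0.048), or 1.73-fold. The call on Fcgr2b was lost in 10 of 19 alternatives, which gave adjusted p between 0.0021 and 0.18, among them the block on title number (0.65, adjusted p = 0.092) and the removal of either control treated library, of control naive replicate 2 or 3 or of Sox2Hi naive replicate 2 or 3. Calls on Fcgr1, Fcgr3, Fcgr4 and Fcer1g held in all 19. Under all-gene scaling the rises were larger, from 1.35 for Fcgr2b to 2.54 for Fcgr4.

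FcRn stood apart. Fcgrt had 15.3, 20.9 and 15.6 CPM in control naive and 12.8 and 7.74 CPM in control treated libraries. Both treated libraries were below the naive ones, as in 38.8% of tested genes, but the difference of -0.75 ± 0.31 did not pass the test (adjusted p = 0.059, 95% interval -1.44 to -0.07). It was -0.20 under all-gene scaling (adjusted p = 0.6), and it passed without control treated replicate 1 (-1.04, adjusted p = 0.046) or without Sox2Hi treated replicate 1 (-0.75, adjusted p = 0.027). Without control treated replicate 2, the lower of the pair, it shrank to -0.28 (adjusted p = 0.54). Its obligate partner B2m, by contrast, rose from a mean of 4058 to 12415 CPM (1.61 ± 0.20, adjusted p = 2e-04).

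In Sox2Hi grafts the activating receptors and the gamma chain were again higher after treatment. Of the 6 genes 4 rose, at 21.6% of tested genes called and 15% called higher, which was 24.1% among genes at 100 CPM or more. The same 4 had groups that did not overlap, as did 37% of tested genes in that direction. Fcgr4 had 99.9, 112 and 72 CPM in naive and 279 and 411 CPM in treated libraries of this graft. Even the lower treated library was well above the highest naive one. The rise of 1.87 ± 0.28 (adjusted p = 0.0026), or 3.64-fold, ranked 124 of 11274.

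Fcgr1 had 11.4, 12.1 and 9.76 CPM without and 18.4 and 36.5 CPM with treatment. The treated libraries lay above all naive ones but differed widely, and the rise was 1.31 ± 0.29 (adjusted p = 0.013). Fcgr3 had 1033, 850.1 and 657 CPM in naive and 1617 and 1949 CPM in treated libraries. No treated library reached down to the naive ones, and Fcgr3 rose by 1.07 ± 0.25 (adjusted p = 0.016). Fcer1g had 1478, 1169 and 979 CPM in naive and 1863 and 2525 CPM in treated libraries. It rose by 0.86 ± 0.24 (adjusted p = 0.029), the smallest of the 4 rises. Fcgr2b had 234, 167 and 154 CPM in naive and 167 and 367 CPM in treated libraries, so 1 treated library was in the naive range. Its difference of 0.53 ± 0.31 did not pass (adjusted p = 0.22, 95% interval -0.16 to 1.22). Fcgrt had 22.4, 17.5 and 20.3 CPM in naive and 11.5 and 22.9 CPM in treated libraries, with a difference of -0.23 ± 0.30 (adjusted p = 0.6). Treated libraries lay on both sides of the naive ones.

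The Sox2Hi calls rested on few libraries. With RLE factors the call on Fcer1g was lost (0.76, adjusted p = 0.057). Under all-gene scaling, which called 3.61% of genes, only Fcgr4 of the 6 passed (1.60, adjusted p = 0.0071), while Fcgr1 (1.04, adjusted p = 0.053), Fcgr3 (0.81, adjusted p = 0.058) and Fcer1g (0.60, adjusted p = 0.12) were not. Without Sox2Hi treated replicate 2, the library with the higher level of all 6 genes, none was called. Fcgr4 then differed by 1.50 (adjusted p = 0.054), Fcgr3 by 0.87 (adjusted p = 0.17), Fcgr1 by 0.67 (adjusted p = 0.21) and Fcer1g by 0.56 (adjusted p = 0.28), and Fcgr2b turned to -0.21. Without Sox2Hi naive replicate 3, only Fcgr4 was called, and without Sox2Hi naive replicate 2 the call on Fcer1g was lost (0.84, adjusted p = 0.077). Without Sox2Hi treated replicate 1, Fcgr2b was called (0.99, adjusted p = 0.049). Where a single library was left in a group, it was assumed to vary like the others.

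Markers of neutrophils and of monocytes moved with the receptors. The summed level of the 18 neutrophil markers had means of 17791 CPM in control naive and 41948 CPM in control treated libraries, and of 15533 and 22939 CPM in Sox2Hi ones. Of these markers 16 were called higher in control grafts and 10 in Sox2Hi grafts. For this and the counts below, 24.1% of all tested genes were called higher in control and 15% in Sox2Hi grafts. Among genes at 100 CPM or more these shares were 54.7% and 24.1%. Calls in either direction were 57.3% and 21.6% of tested genes. The 6 monocyte markers summed to between 120.1 and 263 CPM in control naive, 1248 and 1306 in control treated libraries, and to 110.2 to 161 in naive and 380 and 982 in treated Sox2Hi grafts. All 6 were called higher in control grafts and 4 in Sox2Hi grafts. Sox2Hi treated replicate 2, high for every Fc receptor gene, also had the higher monocyte sum of its pair. The 12 macrophage markers, 9 of them tested, summed to means of 854 and 775 CPM in control grafts and 1191 and 1077 CPM in Sox2Hi grafts, and 1 was called higher in each. Within the Sox2Hi treated pair this sum was 689 and 1465 CPM, again higher in replicate 2. Mast cell markers, whose cells also use Fcer1g, summed to means of 143 and 18.6 CPM in control and 74.4 and 49 CPM in Sox2Hi grafts, and B and plasma cell markers, whose cells carry Fcgr2b, to 90.7 and 82.8 CPM and to 348 and 73.9 CPM. The mean of 348 rested on Sox2Hi naive replicate 2, at 718 CPM against 151 and 174 in the other libraries of the group. Of 5 tested fibroblast and endothelial markers, 4 were called lower in control and 3 in Sox2Hi grafts, as were 3 and 4 of 4 erythroid ones. Of 4 tested T and NK cell markers, 3 were called higher in control grafts and 1 in Sox2Hi grafts. No marker of these lists was at 0 in all libraries. The part of such cells in the receptor levels was not tested.

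Set against the summed neutrophil markers of the same library, which removes the scaling factor, the members split, but the sum was dominated by 1 marker. Fcgr4 counts were 0.838% ± 0.11 (SD, n = 3) of the neutrophil marker counts in control naive and 1.41% ± 0.031 (SD, n = 2) in control treated libraries, and 0.609% ± 0.078 (SD, n = 3) and 1.5% ± 0.4 (SD, n = 2) in Sox2Hi ones. That was 1.68-fold and 2.47-fold higher, without overlap in either graft. Fcgr3 was 1.35-fold and 1.43-fold higher, also without overlap. Fcer1g was 1.17-fold and 1.23-fold higher, with overlap in Sox2Hi grafts. Fcgr1 was 1.02-fold in control grafts, with overlap, and was 1.66-fold higher in Sox2Hi grafts, where replicate 1 of the treated pair (0.0806%) was barely above the highest naive library (0.0779%). Fcgr2b was 0.726-fold in control grafts, with both treated libraries below all naive ones, and 0.977-fold in Sox2Hi grafts. Fcgrt was 0.247-fold and 0.568-fold, without overlap. Il1r2 made up 12019 of the 17791 CPM in control naive and 10217 of the 15533 CPM in Sox2Hi naive libraries. Without it, in an alternative chosen after seeing the data, Fcgr4 was 0.944-fold in control grafts, with overlap, and 1.65-fold in Sox2Hi grafts, without. Fcgr3 was then 0.758-fold, with both control treated libraries below the naive ones, and 0.967-fold in Sox2Hi grafts, with overlap. Fcer1g (0.663-fold and 0.83-fold) and Fcgr2b (0.414-fold and 0.661-fold) were lower in both grafts without overlap, as was Fcgrt (0.136-fold and 0.381-fold), and Fcgr1 was 0.575-fold and 1.11-fold. This second sum leaned on S100a8 and S100a9, at means of 1676 and 1178 CPM in control naive and 8878 and 7205 CPM in control treated libraries. Which members were higher relative to neutrophil markers thus depended on the markers summed. The median marker differed by 1.60 in control and 1.17 in Sox2Hi grafts on the log2 scale, against 1.97 and 1.87 for Fcgr4, 1.68 and 1.07 for Fcgr3 and 1.47 and 0.86 for Fcer1g.

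Set against the monocyte markers every member was lower after treatment, from 0.561-fold and 0.837-fold for Fcgr4 to 0.081-fold and 0.177-fold for Fcgrt, and only Fcgr4 in Sox2Hi grafts overlapped. Set against the macrophage markers all but Fcgrt were higher, from 2.07-fold and 1.59-fold for Fcgr2b to 4.79-fold and 4.23-fold for Fcgr4, without overlap. Both sums leaned on few markers. Apoe made up 559 of the 854 CPM of the macrophage sum in control naive and 845 of the 1191 CPM in Sox2Hi naive libraries. In control grafts Apoe went from a mean of 559 to 391 CPM, while C1qb went from 93.2 to 138 CPM. Of the monocyte markers, Ly6c2 went from 24.5 to 427 CPM and Chil3 from 27.1 to 299.5 CPM there, against 10.9 to 16.7 CPM for Vcan. These ratios were not tested.

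**Figure D2:**
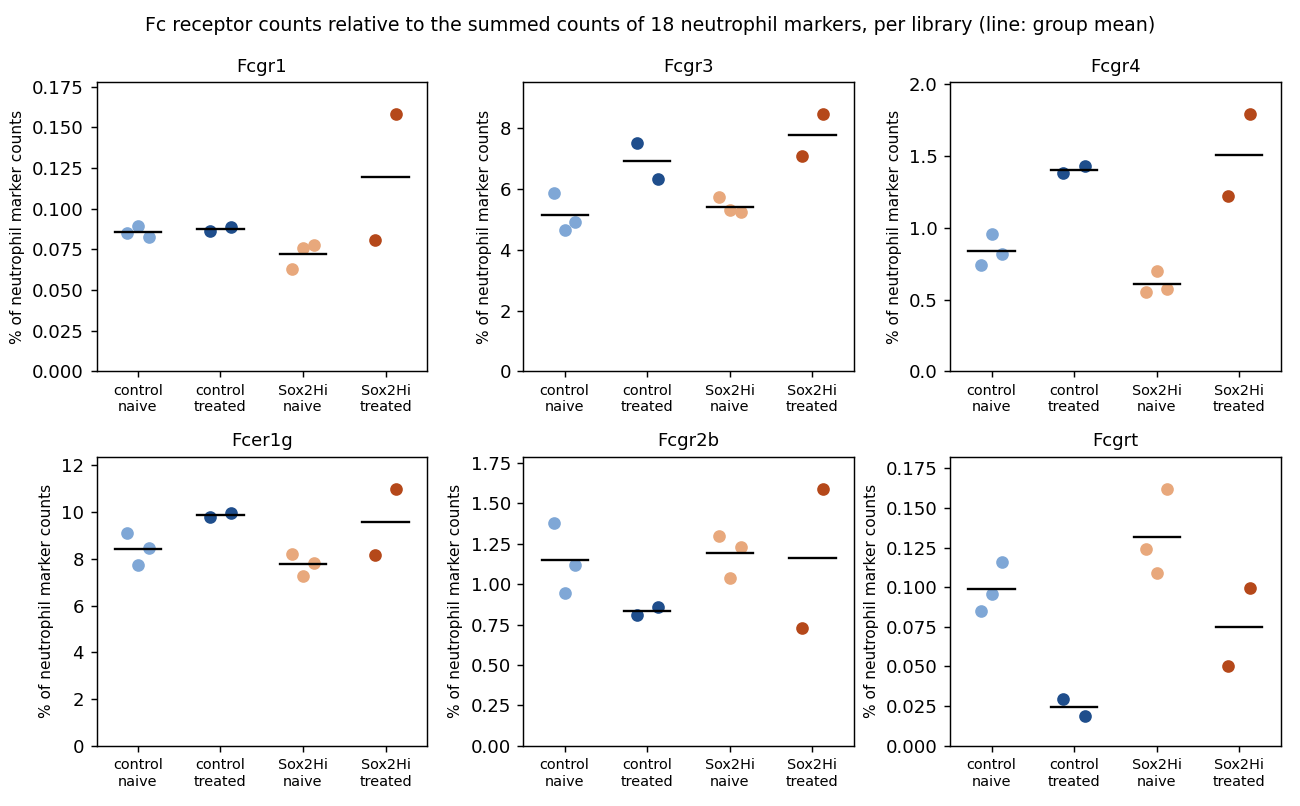
Counts of each Fc receptor gene as a percentage of the summed counts of 18 neutrophil markers in the same library, by group. Points are libraries and lines are group means; Fcgr4 and Fcgr3 are higher in every treated library than in any naive one of the same graft, Fcgrt is lower, and Fcgr1 is level in control grafts. Without Il1r2 in the sum, Fcgr3 and Fcer1g are lower after treatment in control grafts (0.758-fold and 0.663-fold).

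Relative to the inhibitory receptor, activating receptor transcripts were higher in treated libraries. The ratio of Fcgr4 to Fcgr2b counts was 0.538, 1.02 and 0.727 in control naive libraries and 1.72 and 1.66 in control treated ones. In the naive Sox2Hi libraries it was 0.427, 0.673 and 0.466, against 1.67 and 1.12 after treatment. Naive and treated libraries did not overlap in either graft, and the mean was 2.22-fold higher in control and 2.67-fold higher in Sox2Hi grafts. The ratio of Fcgr3 to Fcgr2b rested on genes with shared sequence. It had means of 4.52 ± 0.36 (SD, n = 3) and 8.35 ± 1.4 (SD, n = 2) in control and of 4.59 ± 0.45 (SD, n = 3) and 7.5 ± 3.1 (SD, n = 2) in Sox2Hi grafts. All treated libraries lay above the naive ones, but Sox2Hi treated replicate 2 (5.31) was close to the highest Sox2Hi naive library (5.11). The ratio of Fcgr1 to Fcgr2b was 1.37-fold higher in control and 1.7-fold higher in Sox2Hi grafts, from 0.0768 to 0.105 and from 0.0615 to 0.105. Fcer1g to Fcgr2b went from 7.46 to 11.9 in control grafts and from 6.56 to 9.02 in Sox2Hi grafts, where replicate 2 of the treated pair (6.87) was in the naive range.

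**Figure D3:**
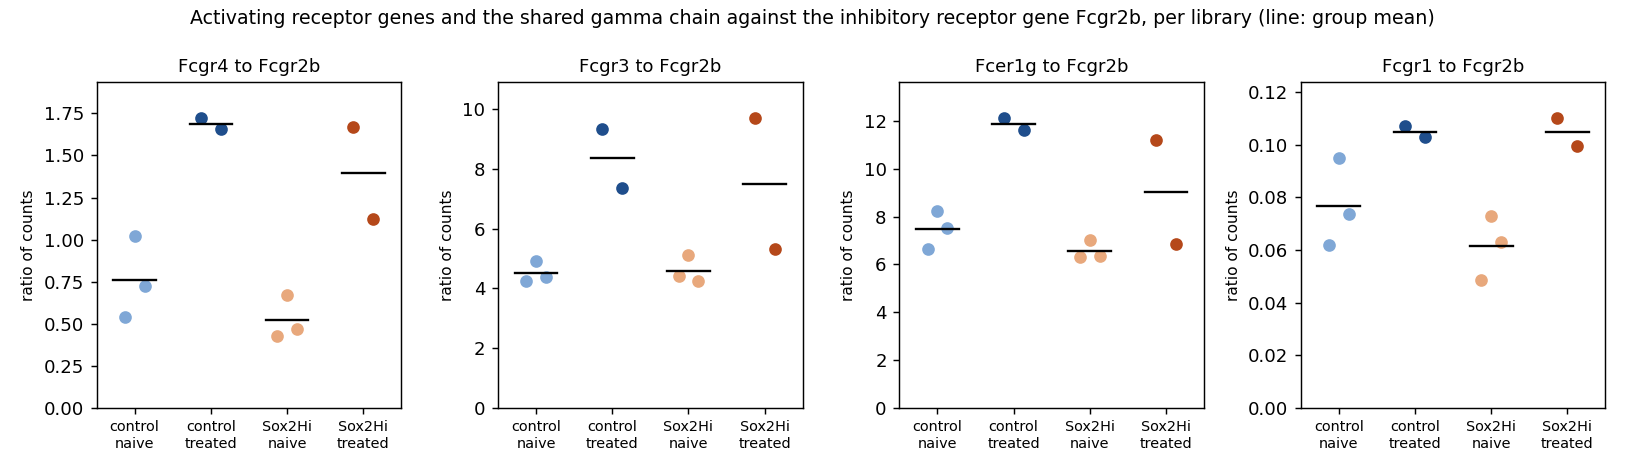
Ratio of the counts of Fcgr4, Fcgr3, Fcer1g and Fcgr1 to those of the inhibitory receptor gene Fcgr2b in each library, by group. Points are libraries and lines are group means; for Fcgr4, naive libraries run from 0.427 to 1.02 and treated ones from 1.12 to 1.72.

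Among the activating components, Fcgr3 to Fcer1g went from 0.608 ± 0.031 (SD, n = 3) to 0.702 ± 0.095 (SD, n = 2) in control grafts, with overlap, and from 0.699 ± 0.028 to 0.82 ± 0.068 in Sox2Hi grafts, without. Fcgr4 to Fcer1g went from 0.1 to 0.142 in control grafts and from 0.079 to 0.156 in Sox2Hi grafts. The treated libraries were higher than all naive ones in both. Fcgr1 to Fcer1g was 0.864-fold in control grafts, with both treated libraries below all naive ones. In Sox2Hi grafts it was 1.3-fold, with overlap.

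Between grafts, no Fc receptor gene was called in naive tumours, where 14% of tested genes were. The series was designed to ask whether Sox2 in the tumour cells alters the neutrophils and their answer to interferon. Fcgr4 came nearest, with means of 151 CPM in control and 94.7 CPM in Sox2Hi grafts and 1 of 3 Sox2Hi libraries above the lowest control one. Its difference of -0.67 ± 0.25 was the only one under the threshold before adjustment (adjusted p = 0.11, 95% interval -1.23 to -0.11). Replicate numbers paired the naive libraries, and with the title number as a block the difference was -0.65 (adjusted p = 0.019), or -0.59 with naive libraries alone (adjusted p = 0.018). It was also called with limma (-0.44, adjusted p = 0.05) and without control naive replicate 3 (-0.86, adjusted p = 0.04), and the other alternatives did not call it, all-gene scaling among them (-0.28, adjusted p = 0.42). The other 5 genes differed by between -0.47 (Fcgr1) and 0.22 (Fcgrt), with adjusted p from 0.3 to 0.84. For Fcgr3 the 95% interval ran from -0.60 to 0.39, and for Fcgr2b from -0.74 to 0.49.

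In treated tumours 5 of the 6 genes had lower means in Sox2Hi than in control grafts and 1 was called, at 20.9% of tested genes called and 5.87% called lower (20.1% among genes at 100 CPM or more). Fcer1g was 4209.8 and 4078 CPM in control treated and 1863 and 2525 CPM in Sox2Hi treated libraries. Every Sox2Hi library was below both control ones, and Fcer1g fell by 0.92 ± 0.27 (adjusted p = 0.035). The call was kept in 10 of 19 alternatives, with adjusted p from 0.0016 to 0.22. It was lost without either control treated library, without Sox2Hi treated replicate 1 (-0.72, adjusted p = 0.22), without control naive replicate 1 and without Sox2Hi naive replicate 2. Fcgr3 (-0.71 ± 0.28, adjusted p = 0.092) and Fcgr4 (-0.77 ± 0.31, adjusted p = 0.099) also had groups without overlap, as did 26.3% of tested genes in that direction, and both were called under all-gene scaling, as were 13.7% of genes (-1.15 and -1.22, adjusted p = 0.013 and 0.017), DESeq2 and the block on title number (-0.70 and -0.81, adjusted p = 0.022 and 0.013). The replicate numbers in the titles and in the library descriptions are the same for naive libraries but differ for treated ones. Control treated replicates 1 and 2 by title carry 2 and 3 in the descriptions, and Sox2Hi treated replicates 1 and 2 carry 1 and 3, so the description numbers match only the second library of each treated pair. The block on description number called none of the 6 genes, and treated libraries of the same title number did not deviate together (r = -0.0952). Fcgr1 (-0.42, adjusted p = 0.37), Fcgr2b (-0.39, adjusted p = 0.45) and Fcgrt (0.75, adjusted p = 0.14) overlapped between grafts. Of the neutrophil markers, 5 of 18 were called lower in the same comparison, with a median of -0.58, close to the -0.56 over the Fc receptor genes, and 1 of 6 monocyte markers was. Their part in the difference was not tested.

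The difference between the responses of both grafts, the graft by treatment interaction, was called for none of the 6 genes, at 19.8% of tested genes called, and none had an unadjusted p under 0.05. It is coded as the Sox2Hi change minus the control change, and these comparisons share libraries. Fcer1g (-0.61 ± 0.34, adjusted p = 0.25) and Fcgr3 (-0.60 ± 0.36, adjusted p = 0.28) had the most negative values, while Fcgr4 was at -0.10 ± 0.40 (adjusted p = 0.89, 95% interval -0.98 to 0.78) and Fcgr1 at 0.05 ± 0.41 (adjusted p = 0.95, 95% interval -0.84 to 0.95). DESeq2 and limma called none either. All-gene scaling, with 27.5% of genes called, called Fcgr3 (-1.42, adjusted p = 0.0086) and Fcer1g (-1.44, adjusted p = 0.0072), against a shift of -0.82 in the median gene. It turned Fcgr1 to -0.78 (adjusted p = 0.13) and Fcgrt from 0.53 to -0.29 (adjusted p = 0.59). Without the filter on low genes, Fcgr4 was called as well (-1.17, adjusted p = 0.037). Whether the grafts differ in this response was therefore not settled for Fcgr3, Fcer1g and Fcgr4, whose calls depended on the scaling or the filter. All 6 intervals of the interaction held 0, and that of Fcgr2b was the widest, from -1.24 to 0.72.

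**Figure D4:**
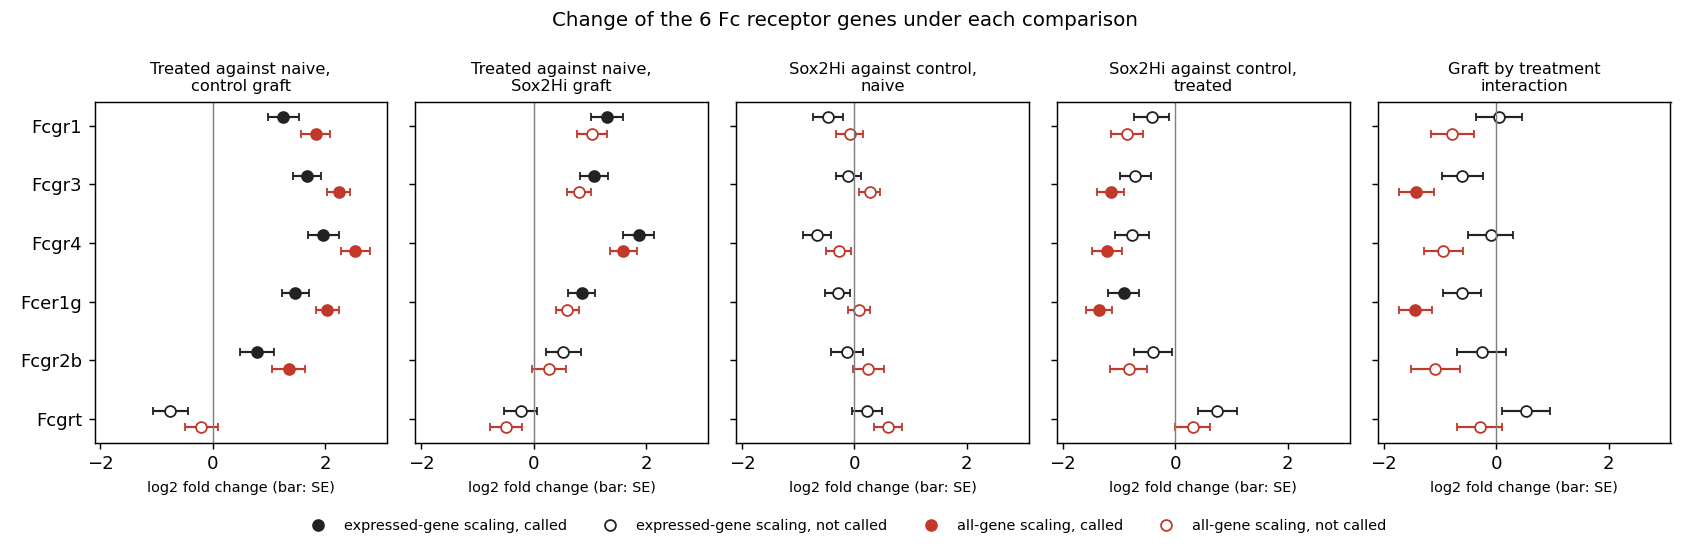
Log2 fold change of each Fc receptor gene in the 5 comparisons, with bars of 1 standard error, under expressed-gene scaling (black) and all-gene scaling (red); filled points were called. Treated against naive, Fcgr4 is called under both scalings in both grafts, and in the interaction only red points (Fcgr3 and Fcer1g) are filled.

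Genes that carry the receptors' signal were examined from 3 lists. Of 29 genes of activating signalling 23 were tested, and in control grafts 18 were called higher and 1 lower, with a median of 1.05 against 1.36 for the Fc receptor genes. Over all tested genes 57.3% were called and 24.1% called higher (54.7% at 100 CPM or more), and the median was -0.18 (0.54 at 100 CPM or more). Kinases of the Src family, which phosphorylates the gamma chain, were among them: Fgr rose from a mean of 51.2 to 159 CPM (1.64 ± 0.28, adjusted p = 0.00085) and Lyn, which serves activating and inhibitory receptors alike, from 202 to 533 CPM (1.40 ± 0.20, adjusted p = 0.00044). Downstream, the adaptor Lcp2 (SLP-76) rose by 1.87 ± 0.24 (adjusted p = 0.00028) and Rac2, the GTPase of the neutrophil oxidase, by 1.73 ± 0.25 (adjusted p = 0.00045). Syk rose from 63.3 to 131 CPM (1.05 ± 0.20, adjusted p = 0.0014). Tyrobp (DAP12), an ITAM adaptor used by other receptors, rose from 561 to 1428 CPM (1.35 ± 0.22, adjusted p = 8e-04). The adaptor Shc1, named after its value was seen, was called lower (-0.60, adjusted p = 0.021), a call that all-gene scaling ended (-0.06, adjusted p = 0.83).

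In Sox2Hi grafts 5 of the 23 activating signalling genes were called higher and 1 lower, with a median of 0.57. Over all tested genes 15% were called higher (24.1% at 100 CPM or more), and the median was 0.09 (0.15 at 100 CPM or more). Those higher included Lcp2 (1.31 ± 0.24, adjusted p = 0.0068), Lyn (0.89 ± 0.20, adjusted p = 0.016) and Tyrobp (0.84 ± 0.22, adjusted p = 0.026), and Shc1 was again lower (-0.61, adjusted p = 0.044). Syk, with means of 72 and 102 CPM, did not pass (0.50 ± 0.20, adjusted p = 0.089). Under all-gene scaling 2 were higher and none lower, and Lyn (0.62, adjusted p = 0.071), Tyrobp (0.57, adjusted p = 0.12) and Shc1 (-0.88, adjusted p = 0.059) were no longer called. Between grafts none was called in naive tumours, where 14% of tested genes were. In treated tumours Lyn alone was lower in Sox2Hi grafts (-0.76 ± 0.23, adjusted p = 0.039), at 20.9% of tested genes called and 5.87% called lower. All-gene scaling called 10 of the 23 lower there, with 13.7% of genes called and the median gene shifted by -0.45. The interaction was called for none of the 23 under expressed-gene scaling and for 18 of them, all negative, under all-gene scaling, at 19.8% and 27.5% of all genes called and with the median gene shifted by -0.82 between the scalings.

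Genes that restrain the signal moved alongside. Of 20 inhibitory signalling genes 18 were tested, and in control grafts 13 were called higher and 1 lower, with a median of 1.11, beside the same 24.1% called higher and median of -0.18 over all tested genes. Clec12a (1.92 ± 0.36, adjusted p = 0.0014), Pirb (1.78 ± 0.28, adjusted p = 0.00059), Pilra (1.62 ± 0.22, adjusted p = 0.00032) and Lilrb4a (1.53 ± 0.21, adjusted p = 0.00037), all ITIM-bearing receptors, rose most. Lilrb4a was abundant, at means of 1485 and 4292 CPM. Of the phosphatases recruited by ITIMs, Ptpn6 (SHP-1) rose from 40.9 to 113 CPM (1.47 ± 0.30, adjusted p = 0.0022) and Inpp5d (SHIP-1), the effector of Fcgr2b, from 33.2 to 53.5 CPM (0.69 ± 0.18, adjusted p = 0.0072). Ptpn11 (SHP-2), named after its value was seen, had means of 12.2 and 10.2 CPM and was not called (-0.26, adjusted p = 0.34). The related phosphatase Inppl1 (SHIP-2), named after its value was seen, fell by 0.86 (adjusted p = 0.0059), but not under all-gene scaling (-0.30, adjusted p = 0.24).

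In Sox2Hi grafts 5 of the 18 inhibitory signalling genes were called higher and none lower, with a median of 0.52, beside 15% called higher and a median of 0.09 over all tested genes. They were led by Clec12a (1.73 ± 0.36, adjusted p = 0.01), Pilra (1.08 ± 0.22, adjusted p = 0.0095), Pirb (1.07 ± 0.28, adjusted p = 0.023) and the Csk-binding adaptor Pag1 (1.05 ± 0.25, adjusted p = 0.017). All-gene scaling called 2, without Pirb (0.81, adjusted p = 0.08) and Pag1 (0.79, adjusted p = 0.067). Ptpn6 (0.76 ± 0.30, adjusted p = 0.09) and Inpp5d (0.27 ± 0.18, adjusted p = 0.28) did not pass. Under expressed-gene scaling Lilrb4a was the single gene of the 3 lists with a called interaction, whereas all-gene scaling called 13 inhibitory, 18 activating and 2 other Fc receptor genes, all negative, against the same 19.8% and 27.5% of genes and shift of -0.82. For Lilrb4a the means were 1637 and 2228 CPM in Sox2Hi grafts, and its response was 1.09 ± 0.31 lower on the log2 scale than in control grafts (log2 -1.09, adjusted p = 0.028). It was also lower in treated Sox2Hi than treated control tumours (-0.95 ± 0.24, adjusted p = 0.021). Of the 18 inhibitory genes it was the only one called there, at 5.87% of tested genes called lower, while all-gene scaling called 8 lower.

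Of 15 other Fc receptor genes and partners, 2 were tested. B2m rose in Sox2Hi grafts too (1.22 ± 0.20, adjusted p = 0.0037), from a mean of 3139 to 7312 CPM, and was lower in treated Sox2Hi than in treated control grafts (-0.76 ± 0.22, adjusted p = 0.033). Fcrl1, known from B cells, was called in control grafts (1.47 ± 0.36, adjusted p = 0.0055) and not in Sox2Hi grafts (0.57 ± 0.36, adjusted p = 0.25), and the interaction was not called (-0.89, adjusted p = 0.26) except under all-gene scaling (-1.72, adjusted p = 0.022). The others, IgE, IgA and IgM receptors among them, averaged under 5 CPM over all libraries. Trim21, the cytosolic IgG receptor and an interferon-stimulated gene, was one of them, at means of 3.43 and 4.36 CPM in control and 1.71 and 4.36 CPM in Sox2Hi grafts.

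**Figure D5:**
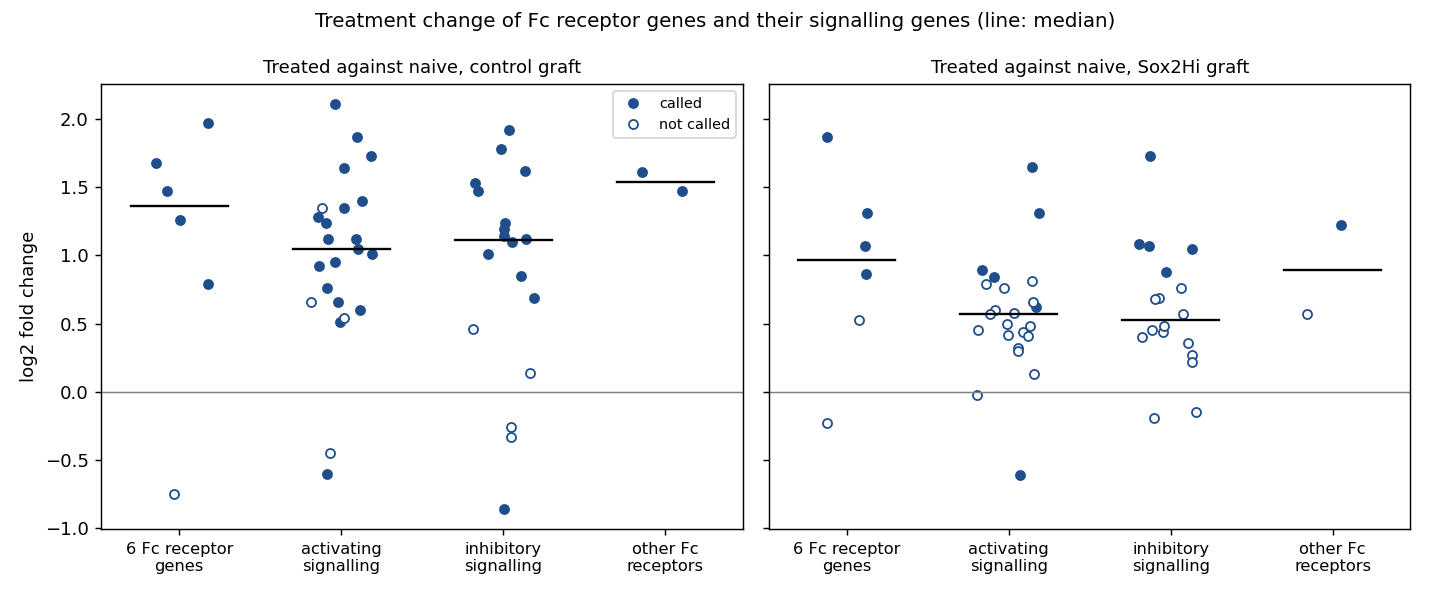
Log2 fold change, treated against naive, of the 6 Fc receptor genes and the tested genes of 3 signalling lists, in control (left) and Sox2Hi grafts (right); filled points were called and lines are medians. Medians are 1.36, 1.05, 1.11 and 1.54 on the left and 0.97, 0.57, 0.52 and 0.90 on the right.

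Across the 10 libraries the levels of the 5 members other than Fcgrt ran together. Pearson's r of log2(CPM + 1) was highest for Fcgr3 with Fcer1g (0.976) and Fcgr1 with Fcgr4 (0.976) and lowest for Fcgr2b with Fcgr4 (0.788), and that of Fcgrt with the others ran from -0.581 (Fcer1g) to -0.236 (Fcgr2b). These are descriptions over libraries that share groups and scaling. Among 7169 candidate genes, those most like Fcgr4 were Isg15 (r = 0.995), Lair1 and Rnf213 (both 0.993). Most like Fcgr1 were Ms4a4c (0.992), itself in the monocyte list, Ptpro (0.987) and Clec12a (0.986). Most like Fcgr3 were Lsp1 (0.996) and Alox5ap (0.995), and most like Fcer1g were Ifitm2 (0.997), Evi2a (0.994) and Tm6sf1 (0.993). Fcgr2b differed, with Apoc2 (0.971), Slc26a11 (0.94) and Mir155hg (0.939), and so did Fcgrt, with Apoe (0.952), a macrophage marker here, Entpd7 (0.899) and Myo1c (0.883).

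Sdhc, which lies between Fcgr3 and Fcer1g and encodes a mitochondrial respiratory chain subunit, was not called under treatment and was named after its values were seen. Sdhc had means of 23.2 and 24.2 CPM in control grafts (0.06 ± 0.17, adjusted p = 0.78) and 25.4 and 24.1 CPM in Sox2Hi grafts (-0.08 ± 0.17, adjusted p = 0.76). Under all-gene scaling Sdhc was called higher in control grafts (0.59, adjusted p = 0.047), near the shift of 0.55 in the median gene.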

How the data were processed

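RNA of Tomato+ neutrophils was sequenced in bulk in 10 libraries, made with a low-input kit per the labels' protocols. The authors deposited estimated counts per gene as whole numbers, 1 column per library. The submitters' processing notes name kallisto 0.44.0 and mm10. The annotation, strandedness and rounding step are not given in the sources used here. Of 55481 entries, 92 ERCC and 4 transgene sequences were kept out, at most 0.00277% of a library. GENCODE M21 (GRCm38) gave symbols for 55144 of 55385 genes.

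The 11274 genes averaging 5 CPM or more were tested in edgeR 4.0.16 (R 4.3.3) with TMM factors from those genes and the quasi-likelihood F-test over 4 groups in 1 model. Calls were made at a Benjamini-Hochberg adjusted p under 0.05, and the standard error is the log2 fold change over the square root of F. The biological coefficient of variation was 0.212. Members, gene lists, the scaling and the tests were chosen with earlier results of these data known. Named genes are the 6 members, up to 4 called genes with the largest change per list averaging at least 10 CPM, Syk, Inpp5d, Ptpn6, B2m, Tyrobp and Trim21, and the 3 genes most correlated with each member. The alternatives were all-gene scaling, no filter, RLE factors, DESeq2 1.42.0, limma 3.58.1 (voom with quality weights), replicate blocks, groups compared alone, each library left out and, chosen after seeing the data, subtraction of an expected background taken from olfactory and vomeronasal receptor genes, and the neutrophil marker sum without Il1r2. In naive libraries, same-numbered samples deviated together (r = 0.273, 0.325 and 0.474), so the numbers in the titles were taken to pair them. No 2 libraries agreed within sampling noise (smallest chi-square per degree of freedom 12.5). The test was checked on simulated data. Depth was 13815734 to 22986193 counts per library. Some genes that meet the naming rule are not reported here.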

Additional observations from a re-analysis of the deposited data

Results flagged for a closer look

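Lilrb4a, an ITIM-bearing inhibitory receptor gene, was set apart because its response to treatment differed between the grafts by the interaction test itself. The Sox2Hi change minus the control change was -1.09 ± 0.31 on the log2 scale (edgeR quasi-likelihood test, adjusted p = 0.028). Its means were 1485 and 4292 CPM in naive and treated control grafts, and 1637 and 2228 CPM in Sox2Hi grafts. None of the 6 Fc receptor genes met that test. Of the listed genes it was called for 1 of 18 inhibitory signalling genes, 0 of 23 activating ones and 0 of 2 other Fc receptor genes. Over all tested genes 19.8% were called, so a called interaction is not particular to Lilrb4a.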

How the results depend on the processing

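For treated against naive control grafts no member changed direction under any alternative, and 4 to 6 of the 6 genes were called with each library left out. In Sox2Hi grafts the count of 4 called became 1 with all-gene scaling and without the filter, 3 with RLE factors, and 0 to 5 with each library left out. Against control in naive grafts, the count of 0 became 1 with limma and, under the replicate block on title numbers, 1 over all libraries and 1 over naive libraries alone, and was 0 to 1 with each library left out. In treated grafts the count of 1 became 3 with all-gene scaling, without the filter, with DESeq2 and with the title block, 0 with limma, the block by description number, groups compared alone and background subtraction, and 0 to 2 with each library left out. The interaction count of 0 became 2 with all-gene scaling and 3 without the filter, and stayed 0 with each library left out. The replicate block otherwise changed only the call on Fcgr2b in control grafts. Directions that turned were all uncalled. Naive, all-gene scaling gave Fcgr2b 0.25, Fcgr3 0.27 and Fcer1g 0.08, and no filter gave Fcgr1 0.03, Fcgr2b 0.35, Fcgr3 0.38 and Fcer1g 0.18. In the interaction, Fcgr1 was -0.78 with all-gene scaling, -1.01 without the filter, -0.18 with RLE factors and with DESeq2, -0.09 with limma and -0.04 with the title block, Fcgrt was -0.29 with all-gene scaling and -0.51 without the filter, and Fcgr4 was 0.08 with the description block. With each library left out, ranges that crossed 0 were -0.87 to 0.19 (Fcgrt) and -0.21 to 0.99 (Fcgr2b) for Sox2Hi treatment, -0.33 to 0.05 (Fcgr2b) and -0.29 to 0.07 (Fcgr3) naive, -1.17 to 0.07 (Fcgr2b) treated, and -0.71 to 0.46 (Fcgr1), -1.13 to 0.20 (Fcgr2b), -0.60 to 0.15 (Fcgr4) and -0.25 to 0.94 (Fcgrt) for the interaction. Over all genes, 6456 were called for control treatment (10078 with all-gene scaling), 2433 for Sox2Hi treatment (1070, 899 without the filter, 3765 with limma, 199 to 3317 with each library left out), 1576 naive (554, 648 without the filter, 4129 with limma, 2478 with the title block on naive libraries alone, 18 with groups alone, 824 with background subtracted, 4 to 1997 with each library left out), 2353 treated (4076, 835 with groups alone, 939 with background subtracted, 284 to 2899 with each library left out) and 2228 for the interaction (8149, 6556 without the filter, 3355 with DESeq2, 1312 with background subtracted). The causes were not tested. With 2 libraries in each treated group, leaving out 1 library changed the count of called members in every comparison but the interaction.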
